A study of Mus musculus with 112 samples.

Results

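The genes of the mouse major histocompatibility complex, called H2, were described in the cerebral cortex of 7 mouse strains across their H2 haplotypes and 2 diets. Members were the genes whose array probe sets the platform annotation gave exactly 1 symbol beginning with H2-, together with B2m, Tap1, Tap2, Tapbp, Cd74 and Ciita, which serve antigen presentation. This rule gave 35 of the 19938 genes measured, 29 of them with an H2 symbol, and 32 of the 35 lie on chromosome 17 in the current gene reference. The others are B2m on chromosome 2, Ciita on chromosome 16 and Cd74 on chromosome 18. Each member had 1 probe set. A further 8 probe sets carried several symbols including an H2 gene, so that H2-K1 and H2-D1, the classical class I genes, are not described here.

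Each of 112 male mice gave 1 array. In every strain 8 were fed the control diet and 8 underwent calorie restriction (CR). The inbred strains 129S1/SvImJ and C57BL6/J carry H2 haplotype b, Balbc/J and DBA/2J haplotype d, and C3H/HeJ and CBA/J haplotype k, while the hybrid B6C3F1/J has 1 b parent, C57BL6/J, and 1 k parent, C3H/HeJ. These haplotypes are textbook knowledge of the strains and are not in the sample labels. The animals were bought at 6 weeks of age, kept in single housing and given 84 kcal of an AIN93M-based food each week. Control or CR feeding then lasted from week 8 to week 22 of age, and cortex was collected after the mice had gone without food overnight. By the study's methods the food given differed between strains, with more for Balbc/J on both diets and a further lowering midway for C57BL6/J and 129S1/SvImJ under CR, so that a strain's response includes its own feeding. Each haplotype was seen in 2 strains, which also differ across the rest of the genome, so haplotype and strain background cannot be told apart beyond what the comparison of the strains of 1 haplotype shows. The array was designed on a reference genome, and H2 genes are among the most variable of the mouse genome. A sequence difference under a probe and a difference in RNA cannot be told apart in these gene-level values, which holds for every strain and haplotype difference below.

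Class I proteins of the H2 complex present peptides from inside the cell and need B2m, the light chain, and the peptide loading proteins Tap1, Tap2 and Tapbp. Class II proteins are pairs of an alpha and a beta chain, H2-Aa with H2-Ab1 and H2-Ea with H2-Eb1, and present peptides taken up from outside. Cd74, the invariant chain, and H2-DMa, a peptide editor, serve class II loading, and Ciita is the transactivator of class II genes. In the brain class II genes are mainly expressed by macrophages of its borders and by activated microglia, and class I genes by many cells. Promoters of class II genes share the Y box, an element bound by the factor NF-Y.

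The Y box is shown for the members whose promoters held it on their own strand, which are among the class II members compared below. Of the others, H2-Ab1, H2-Ea, Cd74 and Ciita had no promoter entry and were not searched. H2-DMa and H2-Ob had an entry without the letters on either strand. The letters CTGATTGG, in capitals, were searched on both strands in 32851 RefSeq promoters of build GRCm38.p6, each 250 bases before to 50 bases after a gene's start. They were found on either strand in 4.10% of all promoters and in 13 of the 25 members with an entry. On the gene's own strand they were found in 1.99% of all promoters and in 4 members, and the stretches below are the 120 bases before the start, 5' to 3' on the gene's strand. The start is that of the promoter entry, which for H2-Eb2 lies inside the gene as listed, since the listed gene begins at 34325503.
H2-Aa: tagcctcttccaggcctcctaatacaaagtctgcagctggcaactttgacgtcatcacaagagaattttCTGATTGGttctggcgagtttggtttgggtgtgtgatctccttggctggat
H2-Eb1: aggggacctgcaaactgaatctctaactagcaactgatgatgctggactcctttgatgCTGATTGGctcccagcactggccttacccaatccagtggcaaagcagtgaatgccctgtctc
H2-Eb2: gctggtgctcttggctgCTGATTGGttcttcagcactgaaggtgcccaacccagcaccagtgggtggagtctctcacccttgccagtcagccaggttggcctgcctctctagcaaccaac
H2-Oa: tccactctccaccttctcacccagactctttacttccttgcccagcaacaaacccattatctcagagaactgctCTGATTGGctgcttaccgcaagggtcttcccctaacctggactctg
The H2-Aa stretch is chr17:34287824-34287943 on the minus strand, and those of H2-Eb1 at chr17:34305747-34305866, H2-Eb2 at chr17:34325555-34325674 and H2-Oa at chr17:34092259-34092378 are on the plus strand. The letters began 51, 62, 103 and 46 bases before the start, in that order. On the opposite strand they lay in the promoters of Tap1 and of 8 of the 12 H2-M members. A match is a description of the C57BL/6J reference sequence and shows no binding.

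Most members gave low signal. Only 5 of the 35, B2m, Tapbp, H2-Ke6, H2-DMa and H2-Q5, lay above the median gene by their mean over the 112 arrays, while the M region members lay between the 4.93 and 36.6 percentiles. All values are log2 RMA signal, which does not fall to 0 for a silent gene, so a difference understates the change of a weak gene, and levels were not compared between genes. The number of arrays limits the precision, with a median standard error of 0.048 log2 units for a difference between a pair of haplotypes.

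A pair of control arrays stood apart. In C57BL6/J control replicate 6 the mean of a cerebellar gene list lay 4.03 log2 units above the other 7 arrays of its group and the mean of a cortical neuron list stood at -2.10 from them, and in B6C3F1/J control replicate 8 the cerebellar list lay 4.08 above and the neuron list stood at -1.83. The microglial list stood at -0.81 and -0.69. Results with and without these arrays are given for H2-Ab1, H2-DMa, H2-Eb2, H2-K2, Cd74 and the calls in the hybrid. Other member results are with all arrays unless stated. Counts of list genes called between haplotypes are given with all arrays only. In the cerebellar list CBA/J CR replicate 6 lay 1.31 above its group, and replicate 8 of the DBA/2J controls 1.62.

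Strains differed in most members, as they did in most genes. Among control mice of the 6 inbred strains 24 of 35 members were called, against 64.9% of all genes, by limma's moderated F at an adjusted p under 0.05. The haplotype means differed in 17 members, 48.6% of them against 29.7% of all genes. Tests between haplotypes, here and below, are judged on the spread of mice within strain and diet groups. Their p-values do not measure the spread between strains that share a haplotype. Strains of the same haplotype differed in 18 members, 51.4% against 59.9% of all genes, with Tapbp and H2-M9 at the edge of the threshold (adjusted p = 0.0495 and 0.05 after rounding). Differences between haplotypes with none called within a haplotype were found for 7 members, H2-Ab1, H2-DMa, H2-Oa, H2-Ob, H2-K2, H2-Q5 and Tap2, which is 20.0% of members against 6.39% of all genes. The CR mice, which the control comparison did not use, were of the same strains, so they add no further strain of a haplotype. Among them the haplotypes differed in 15 members against 29.5% of all genes. Strains of the same haplotype differed in 9, 25.7% against 46.5% of all genes. The haplotypes differed under both diets in 14 members against 20.4% of all genes. The share of the variance among the 6 strain means that lay between haplotypes had a median of 37.4% over the members and 25.9% over all genes.

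**Figure D1:**
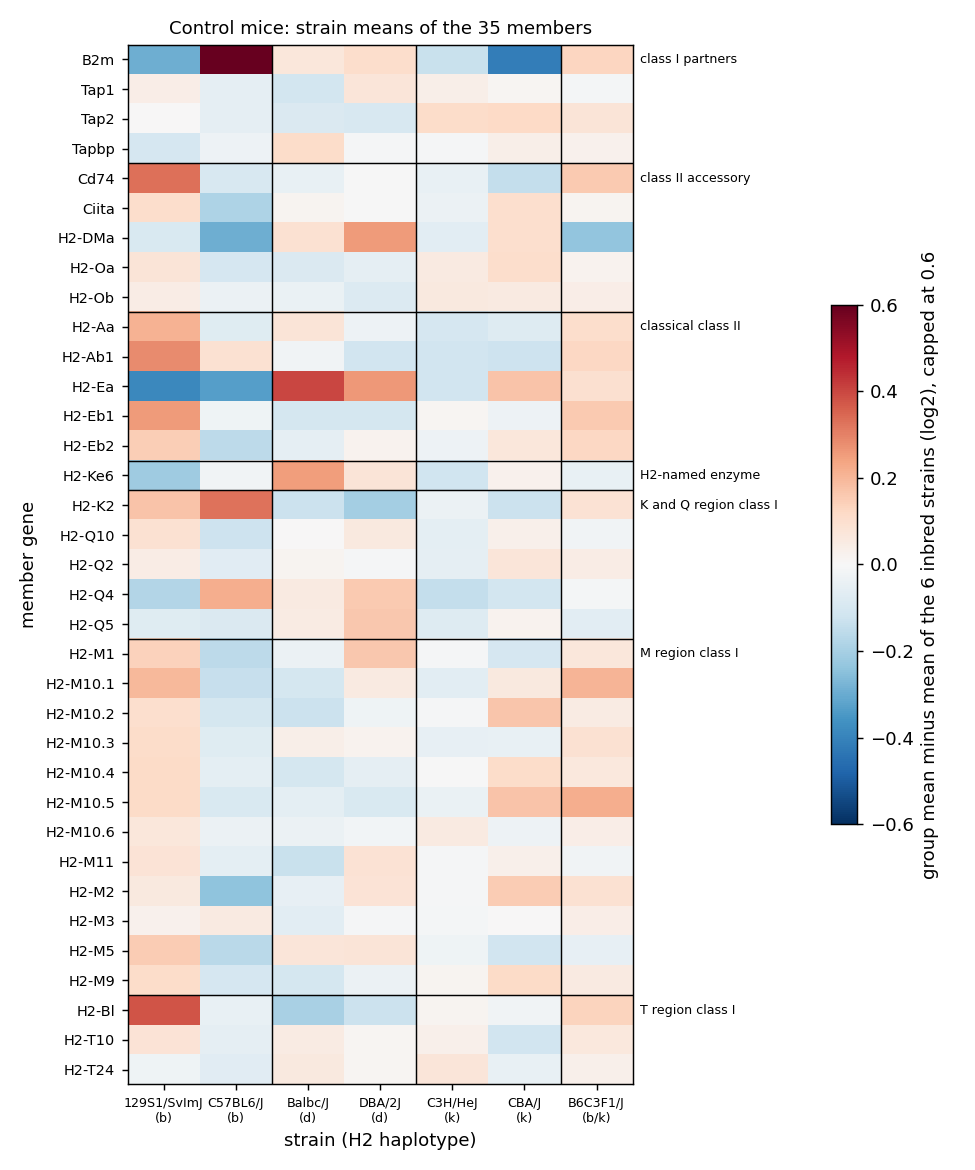
Strain means of the 35 members in control mice (rows, ordered by class) for 7 strains with their H2 haplotype (columns), as the difference in log2 RMA signal from the mean of the 6 inbred strains, capped at 0.6. H2-Ea is low in both b strains, H2-K2 high in both, and B2m is high in C57BL6/J and low in 129S1/SvImJ.

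By pairs of haplotypes in control mice, b and d differed in 9 members, 4 higher and 5 lower in b, against 23.1% of all genes. Haplotypes b and k differed in 9 members, 5 higher and 4 lower in b, against 20.5%. Haplotypes d and k also differed in 9 members, 5 higher and 4 lower in d, and here the background was 10.3%. The median difference over the members was 0.04, -0.02 and -0.02 log2 units for these pairs, beside -0.01, -0.02 and -0.01 over all genes, so that the members as a group had no common direction.

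Among the classical class II chains, H2-Ea, the alpha chain of the E molecule, was lowest in the b haplotype. It is known that b strains carry a deletion at the start of this gene and make no E alpha chain, and the C57BL/6J reference lists it as a transcribed pseudogene. Control mice of haplotype b ranged from 5.28 to 6.13 log2 units with a median of 5.71, those of haplotype d from 5.84 to 7.03 with a median of 6.40, and those of haplotype k from 5.79 to 6.46 with a median of 6.03 (16 mice each). Haplotype b lay below d and k, with some overlap of single mice. The means differed by -0.69 ± 0.07 for b minus d (SE, limma adjusted p = 1.26e-15), a 1.61-fold difference, and by -0.39 ± 0.07 for b minus k (adjusted p = 1.35e-06). Haplotype d was also higher than k, by 0.30 ± 0.07 (adjusted p = 0.000432). In CR mice haplotype b ranged from 5.42 to 5.92, d from 6.00 to 6.57 and k from 5.99 to 6.48, so that b overlapped with neither. Without overlap of their CR mice, b and d differed in 0.286% of all genes and b and k in 0.361%. The CR means were lower in b by 0.57 ± 0.07 against d and by 0.51 ± 0.07 against k on the log2 scale (adjusted p = 8.02e-12 and 5.79e-10), and d and k differed by 0.06 (95% interval -0.07 to 0.19). In control mice the k strains themselves differed, since C3H/HeJ averaged 5.93 ± 0.12 (SD, n = 8) and CBA/J 6.21 ± 0.20, a difference of -0.28 ± 0.09 (adjusted p = 0.0226). Of the variance between the 6 strains, 90.2% lay between haplotypes in control mice and 98.6% in CR mice.

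**Figure D2:**
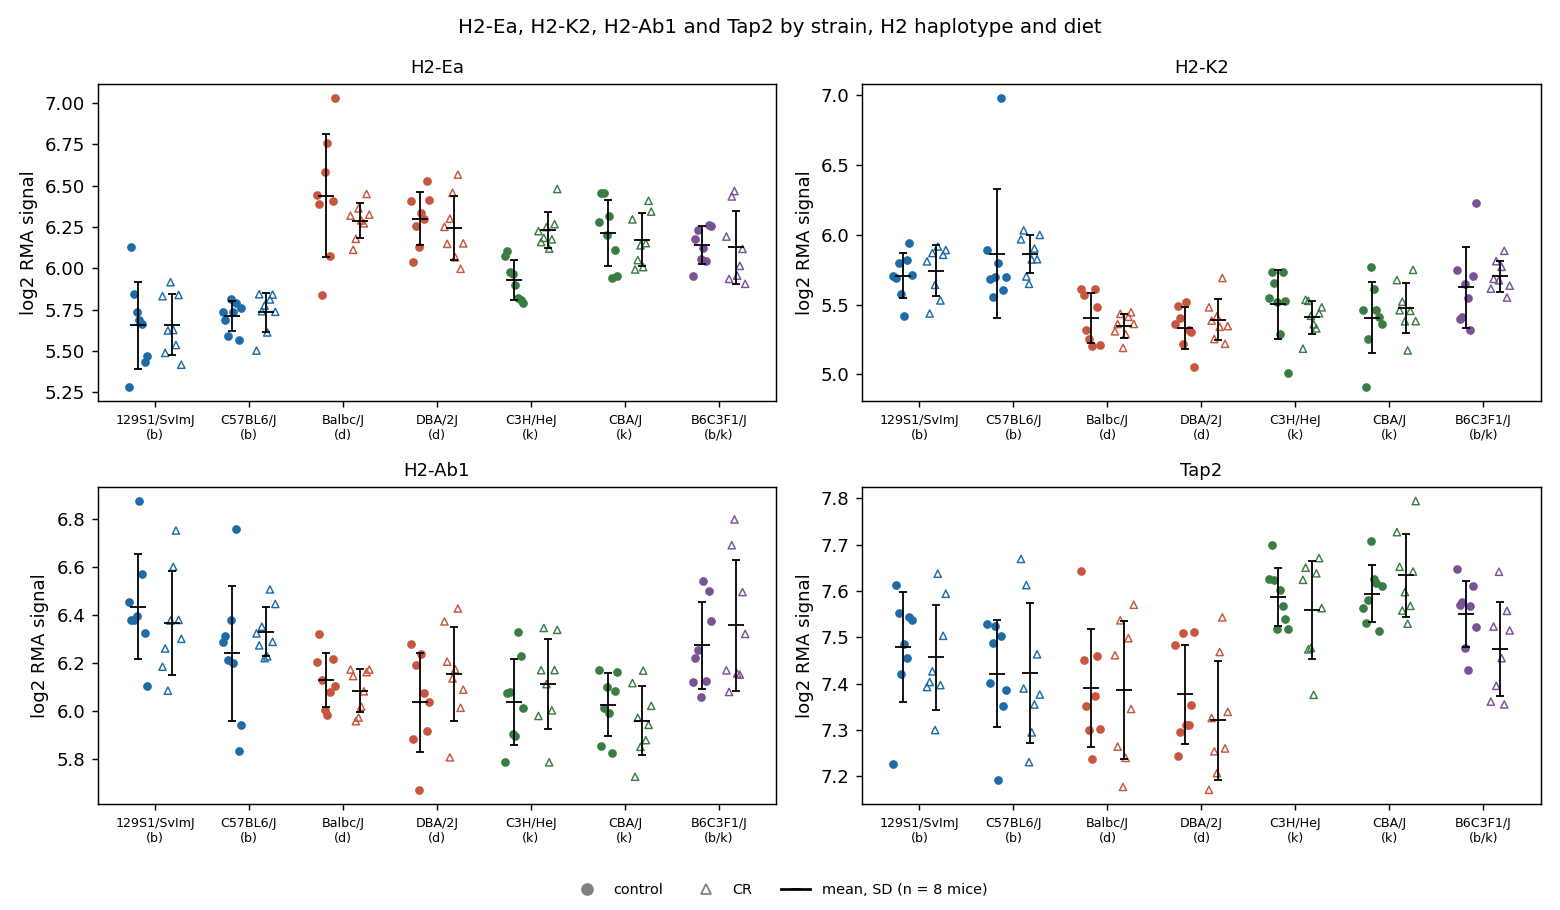
Log2 RMA signal of H2-Ea, H2-K2, H2-Ab1 and Tap2 in each mouse (points, filled for control and open for CR) by strain with H2 haplotype in parentheses, with the mean and SD of 8 mice. H2-Ea is lowest in the 2 b strains, H2-K2 and H2-Ab1 are highest there, and Tap2 is highest in the 2 k strains.

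H2-Ab1, the beta chain of the A molecule, was higher in haplotype b. Control values ranged from 5.83 to 6.88 in b with a median of 6.35, from 5.67 to 6.32 in d with a median of 6.09, and from 5.79 to 6.33 in k with a median of 6.04. The ranges overlapped widely. The b mean was higher than d by 0.26 ± 0.07 (limma adjusted p = 0.00177) and than k by 0.31 ± 0.07 (adjusted p = 0.00017), and d and k differed by 0.05 ± 0.07. In CR mice the differences were 0.23 ± 0.07 and 0.31 ± 0.07 (adjusted p = 0.00617 and 0.000155). Without the pair of arrays high in cerebellar genes the control differences were 0.22 and 0.27, both still called, and 129S1/SvImJ was then higher than C57BL6/J by 0.27 ± 0.09 (adjusted p = 0.00934). With all arrays that last difference was 0.20 ± 0.09 (adjusted p = 0.0675).

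H2-Eb1, the beta chain of the E molecule, is intact in all 3 haplotypes and did not show the pattern of its partner. The strain means of control mice were 7.59 in 129S1/SvImJ, 7.31 in C57BL6/J, 7.23 in both Balbc/J and DBA/2J, 7.35 in C3H/HeJ and 7.31 in CBA/J. Haplotype b was higher than d by 0.22 ± 0.05 (adjusted p = 0.000947) and the difference to k was 0.12 ± 0.05 (adjusted p = 0.0929). The b strains themselves differed by 0.28 ± 0.08 (adjusted p = 0.00137), a call within haplotypes that was lost when array medians were set to 0 (adjusted p = 0.0576).

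For H2-Aa, the alpha chain of the A molecule, no difference between haplotypes was called. Its control means lay between 5.62 in C3H/HeJ and 5.92 in 129S1/SvImJ, and the interval for b minus d was -0.09 to 0.18. H2-Eb2, a further beta chain gene, had 2.35% of its strain variance between haplotypes in control mice. In CR mice the share was 66.9%, over a range of strain means of 0.15 beside 0.31 in control mice. Its highest control mean of 6.14 in 129S1/SvImJ stood beside its lowest of 5.83 in C57BL6/J (difference 0.31 ± 0.07, adjusted p = 0.000332). Those strains share haplotype b. Without the pair of arrays high in cerebellar genes they differed by 0.37 ± 0.07 (limma adjusted p = 1.21e-05).

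Among the class II accessory genes, H2-DMa, a chain of the peptide editor, was lower in b. Control values ranged from 6.58 to 7.97 in b with a median of 7.69, from 7.76 to 8.29 in d with a median of 7.98, and from 7.56 to 8.15 in k with a median of 7.84. The lowest b mouse was C57BL6/J control replicate 6, at 6.58 beside 7.56 to 7.78 in the other 7 of its group, and in the hybrid control replicate 8 was at 6.39 beside 7.57 to 7.94. The b mean was lower than d by 0.37 ± 0.08 on the log2 scale (b minus d -0.37, adjusted p = 0.000173), and b minus k was -0.21 ± 0.08 (adjusted p = 0.0467). Without the pair of arrays these were -0.30 ± 0.06 (adjusted p = 1.82e-05) and -0.14 ± 0.06 (adjusted p = 0.0587), so that the difference to k lost its call. The CR values were -0.24 ± 0.08 (adjusted p = 0.0181) and -0.06 ± 0.08 (adjusted p = 0.72).

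The chains of H2-O, a regulator of the peptide editor, differed less. Haplotype d was lower than k in H2-Oa by 0.15 ± 0.05 on the log2 scale (d minus k -0.15, adjusted p = 0.0365) and the CR difference was -0.15 too (adjusted p = 0.0262). In H2-Ob d minus k was -0.12 ± 0.04 in control mice (adjusted p = 0.0285), and in CR mice the haplotypes were not called for this gene (adjusted p = 0.798). Ciita, the class II transactivator, showed no called difference between haplotypes (adjusted p = 0.561). Its control mean of 6.71 in 129S1/SvImJ exceeded that of 6.42 in C57BL6/J by 0.29 ± 0.08 (adjusted p = 0.000881).

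Cd74, the invariant chain, was highest in 129S1/SvImJ. Control values there ranged from 6.61 to 7.16 with a median of 6.83, and in C57BL6/J from 6.20 to 6.62 with a median of 6.47. The ranges only just overlapped, through C57BL6/J control replicate 6, an array high in cerebellar genes. The other 7 mice of its group reached at most 6.49. The difference of 0.43 ± 0.09 (adjusted p = 4.05e-05) was within haplotype b, while the other 4 inbred control means lay between 6.38 and 6.52. Without the pair of arrays high in cerebellar genes that difference of the b strains was 0.45 ± 0.09 (limma adjusted p = 2.14e-05). Haplotype b was higher than k by 0.21 ± 0.06 (adjusted p = 0.00971), and in CR mice b minus k was 0.00 ± 0.06.

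Markers of immune cells were also compared between the b strains. Of the B cell list 5 of 7 genes were called, all higher in 129S1/SvImJ, with list means of 6.16 ± 0.15 there and 5.92 ± 0.07 in C57BL6/J (SD, n = 8). Of T and NK cell genes 3 of 9 and of border macrophage and dendritic cell genes 4 of 14 were called, all higher in 129S1/SvImJ. These shares, 33.3% and 28.6%, were below the 55.4% of all genes called in either direction. Of 16 microglial genes 3 were called higher and 6 lower in 129S1/SvImJ. In settings chosen after seeing the data, a second quantile normalization left 2 B cell genes called higher, and 2 border cell genes higher and 1 lower. With array medians set to 0, 4 B cell genes were called higher, and 4 border cell genes higher and 2 lower. The microglial calls were 3 higher and 8 lower, and 0 higher and 10 lower, in that order. Without the pair of arrays high in cerebellar genes 6 B cell, 4 T and NK cell and 6 border cell genes were called, all higher. The 11 microglial genes then called were all lower. The part of these cells in the Cd74, Ciita and class II differences was not tested.

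Of the class I partners, B2m, the light chain, had the widest range of strain means of any member, 1.08 log2 units, at the 99.4 percentile of all genes. In C57BL6/J control mice it ranged from 11.27 to 11.75 with a median of 11.56, and in 129S1/SvImJ from 10.38 to 10.83 with a median of 10.57. These strains share haplotype b, and 55.4% of all genes were called between them. The difference of -0.96 ± 0.08 (129S1/SvImJ minus C57BL6/J, adjusted p = 3.27e-20) was 1.95-fold. The means of Balbc/J and DBA/2J were 10.94 and 10.98 and differed by -0.03 ± 0.08, and C3H/HeJ at 10.74 was higher than CBA/J at 10.46 by 0.28 ± 0.08 (adjusted p = 0.00569). Only 31.5% of the strain variance lay between haplotypes. B2m is on another chromosome than the H2 complex, so that the H2 haplotype does not carry it. In CR mice C57BL6/J was again highest, with a mean of 11.49. The lowest control mean was that of CBA/J, while in CR mice 129S1/SvImJ was lowest at 10.55 and CBA/J was at 10.70.

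The microglial list, whose cells express B2m, also moved between strains. Its mean in control mice was 7.76 ± 0.08 (SD, n = 8) in 129S1/SvImJ, 7.93 ± 0.29 in C57BL6/J (8.03 ± 0.07 without control replicate 6), 7.97 ± 0.07 in Balbc/J, 7.88 ± 0.05 in DBA/2J, 7.88 ± 0.06 in C3H/HeJ and 7.71 ± 0.05 in CBA/J, so that the strains lowest in B2m were also lowest in this list and, without that replicate, C57BL6/J was highest in both. With all arrays Balbc/J was highest in the list. In C57BL6/J control replicate 6 itself B2m was at 11.74, 0.22 above the mean of the rest of its group, while the list stood at -0.81 from them. The part of the list in the B2m difference was not tested. In bulk tissue fewer cells of a type and less RNA per cell cannot be told apart.

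**Figure D3:**
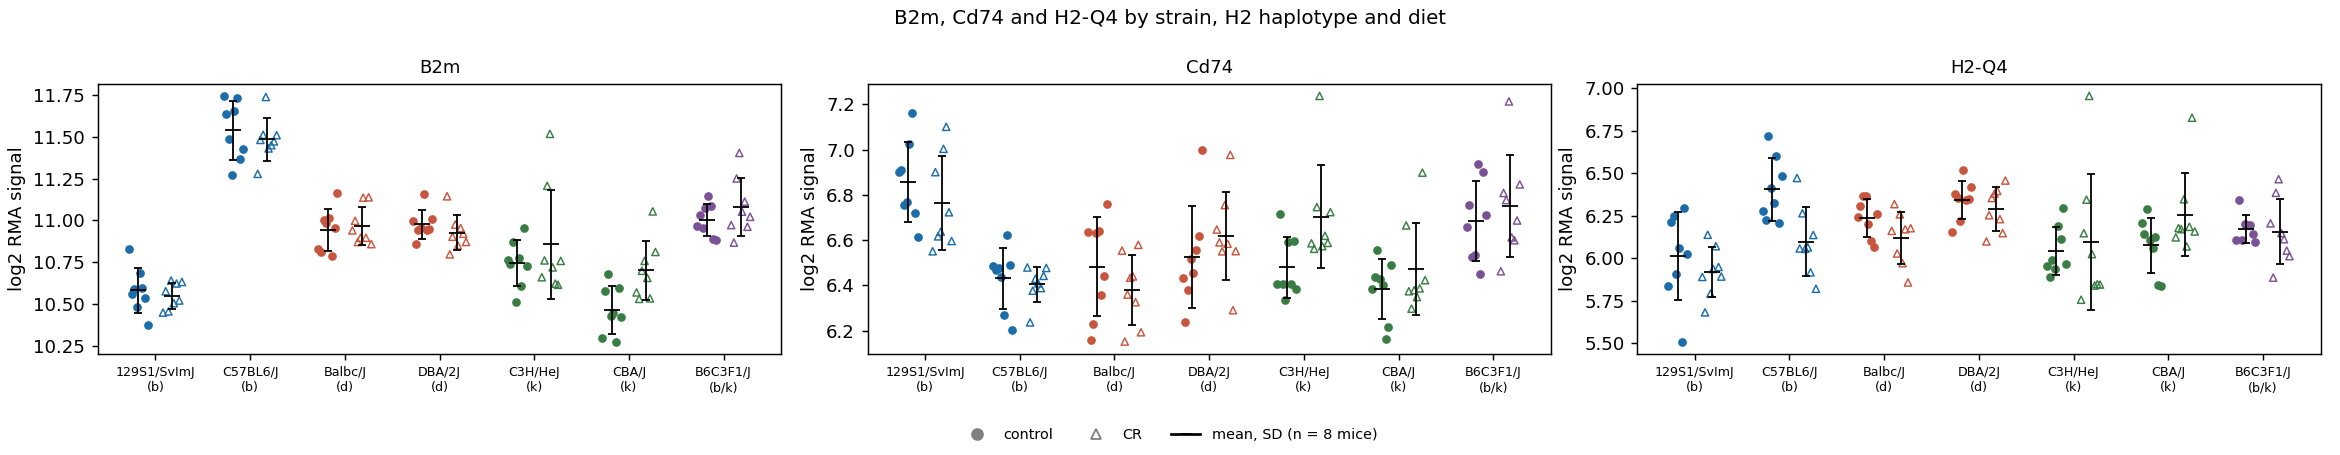
Log2 RMA signal of B2m, Cd74 and H2-Q4 in each mouse (points, filled for control and open for CR) by strain with H2 haplotype in parentheses, with the mean and SD of 8 mice. B2m and H2-Q4 are higher and Cd74 lower in C57BL6/J than in 129S1/SvImJ, although both carry haplotype b, and a C3H/HeJ CR mouse is highest of its group in all 3 genes.

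Tap2, a subunit of the peptide transporter, was the member with the largest share of its strain variance between haplotypes in control mice, 96.2%. Control values ranged from 7.51 to 7.71 in k with a median of 7.59, from 7.19 to 7.61 in b with a median of 7.49, and from 7.24 to 7.64 in d with a median of 7.35. The lowest k mouse lay above the medians of b and d. Haplotype b was lower than k by 0.14 ± 0.04 on the log2 scale (b minus k -0.14, adjusted p = 0.00511), d minus k was -0.21 ± 0.04 (adjusted p = 3.59e-05), and the CR values were -0.16 and -0.24 (adjusted p = 0.00191 and 8.36e-07). Strains of the same haplotype differed by at most 0.06 in control mice.

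Tap1, the other subunit, was not called between haplotypes in control mice (adjusted p = 0.614), and in CR mice b minus k was -0.13 ± 0.04 (adjusted p = 0.00838). In control mice Balbc/J was lower than DBA/2J by 0.18 ± 0.05 on the log2 scale (difference -0.18, adjusted p = 0.00714). Tapbp, which bridges the transporter and the class I chain, was lower in b than in d by 0.12 ± 0.03 in control mice (b minus d -0.12, adjusted p = 0.00455) and by 0.13 in CR mice (-0.13, adjusted p = 0.00162). The differences of both genes were at most 1.14-fold.

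Among the class I genes of the K and Q regions, H2-K2, listed as a transcribed pseudogene, was higher in b. Control values ranged from 5.42 to 6.98 in b with a median of 5.70, from 5.06 to 5.61 in d with a median of 5.34, and from 4.91 to 5.77 in k with a median of 5.49. The value of 6.98 was C57BL6/J control replicate 6, and the other 7 mice of its group reached at most 5.89. The b mean was higher than d by 0.42 ± 0.07 (adjusted p = 4.62e-06) and than k by 0.33 ± 0.07 (adjusted p = 0.000314), and without the pair of arrays by 0.34 ± 0.06 and 0.25 ± 0.06 (adjusted p = 2.74e-06 and 0.000521). In CR mice, which hold neither array, the differences were 0.43 ± 0.07 and 0.36 ± 0.07 (adjusted p = 2.5e-06 and 0.000103).

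H2-Q5, also a transcribed pseudogene, was lower in b than in d by 0.19 ± 0.05 in control mice (b minus d -0.19, adjusted p = 0.00189) and by 0.20 in CR mice (-0.20, adjusted p = 0.000994). H2-Q4, a nonclassical class I gene, had control means of 6.01 in 129S1/SvImJ and 6.41 in C57BL6/J, a difference of -0.39 ± 0.10 (adjusted p = 0.000345) within haplotype b. Its d mean in control mice was higher than k by 0.23 ± 0.07 (adjusted p = 0.0151). The H2-Q4 control means were 6.21 in b, 6.29 in d and 6.06 in k. In CR mice they were 6.01, 6.20 and 6.18, so that d and k lay close and b was lowest. H2-Q10 differed within haplotype b (0.21 ± 0.06, adjusted p = 0.00182), and for H2-Q2 nothing was called.

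H2-Bl, a transcribed pseudogene of the T region, was highest in 129S1/SvImJ, with a control mean of 6.28 ± 0.12 beside 5.85 ± 0.17 in C57BL6/J (SD, n = 8). Those b strains differed by 0.42 ± 0.07 (adjusted p = 2.64e-07). The b mean was higher than d by 0.33 ± 0.05 (adjusted p = 8.88e-08) and than k by 0.17 ± 0.05 (adjusted p = 0.00833), and d was below k, with d minus k at -0.16 ± 0.05 (adjusted p = 0.0241). H2-T10 and H2-T24 differed between no haplotypes (adjusted p = 0.62 and 0.221).

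The M region members, which include the H2-M10 genes known as partners of vomeronasal receptors, gave signal below the median gene. Of these 12 members 2 were called between haplotypes, H2-M2 and H2-M5, a smaller share than the 29.7% of all genes. H2-M5 was higher in d than in k by 0.14 ± 0.04 (adjusted p = 0.0185). H2-M2 was lower in b than in k by 0.16 ± 0.05 (b minus k -0.16, adjusted p = 0.0198), a haplotype call that was lost in the fit on the 48 inbred control arrays alone and in the mean of both diets.

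H2-Ke6, an H2-named gene that codes for the enzyme Hsd17b8 and no antigen presenting protein, was highest in d. Its control means were 8.08 in 129S1/SvImJ, 8.27 in C57BL6/J, 8.54 in Balbc/J, 8.37 in DBA/2J, 8.17 in C3H/HeJ and 8.31 in CBA/J. Haplotype b minus d was -0.28 ± 0.04 (adjusted p = 4.97e-09) and d minus k 0.21 ± 0.04 (adjusted p = 1.75e-05). Strains within b and within d differed too, by -0.19 ± 0.05 and 0.17 ± 0.05.

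Differences within haplotypes were mainly between the b strains. Between 129S1/SvImJ and C57BL6/J 17 members were called with all arrays, 14 higher and 3 lower in 129S1/SvImJ, beside 55.4% of all genes. Between Balbc/J and DBA/2J 2 members were called, Tap1 and H2-Ke6, beside 17.1% of all genes. Between C3H/HeJ and CBA/J 2 were called, H2-Ea and B2m, beside 15.4%. In each pair the share of members called was below the background. The 3 members lower in 129S1/SvImJ were B2m, H2-Q4 and H2-Ke6. Of the 12 M region members 11 were higher in 129S1/SvImJ by value and 6 of them were called. The median difference of 129S1/SvImJ minus C57BL6/J was 0.18 over the members and 0.06 over all genes. With array medians set to 0 the calls were 10 higher and 4 lower, 3 M region members were called, and the median was 0.11. With a second quantile normalization they were 8 and 4, with 3 M region members called and a median of 0.06. The count of members higher in 129S1/SvImJ thus depended in part on the scaling.

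The hybrid B6C3F1/J, with 1 b and 1 k parent, was compared with the mean of its parents. In control mice 6 members were called, all higher in the hybrid, which is 17.1% of members beside 16.2% of all genes. These were H2-Ea, Cd74, H2-Eb2, H2-M10.1, H2-M10.5 and H2-M2. By value 30 of the 35 members were above the mean of the parents, with a median difference of 0.08 log2 units beside 0.02 over all genes, and with array medians set to 0 the numbers were 23 members and 0.05. In CR mice 2 members were called, H2-Aa and H2-T24, beside 18% of all genes. With all arrays no member was called under both diets. Without the pair of arrays high in cerebellar genes 8 members were called in control mice, beside 19% of all genes, with H2-Aa (0.23, adjusted p = 0.0438) and H2-Eb1 (0.19, adjusted p = 0.0418) in addition, so that H2-Aa was then called under both diets.

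The H2-Ea mean of control hybrids was 6.14, above 5.71 in the b parent and 5.93 in the k parent. Control hybrids ranged from 5.95 to 6.26 with a median of 6.15, C57BL6/J from 5.56 to 5.81 with a median of 5.74, and C3H/HeJ from 5.79 to 6.11 with a median of 5.93. The hybrid exceeded the mean of the parents by 0.32 ± 0.08 (limma adjusted p = 0.00237). In CR mice, where C3H/HeJ was at 6.23, the hybrid mean was 6.13 and the difference 0.15 ± 0.08 (adjusted p = 0.216).

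B2m in the hybrid lay between its parents. The control mice ranged from 10.89 to 11.15 (n = 8), beside means of 11.54 ± 0.18 (SD) in C57BL6/J and 10.74 ± 0.14 in C3H/HeJ. The difference from the mean of the parents was -0.14 (95% interval -0.27 to -0.01, adjusted p = 0.145). Against the mean of the parents on the linear scale it was -0.20 (adjusted p = 0.025). Cd74 averaged 6.68 in the hybrid and 6.43 and 6.48 in the parents, which was 0.23 ± 0.08 above their mean (adjusted p = 0.0328). That call was lost under 2 other scalings and with array weights.

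**Figure D4:**
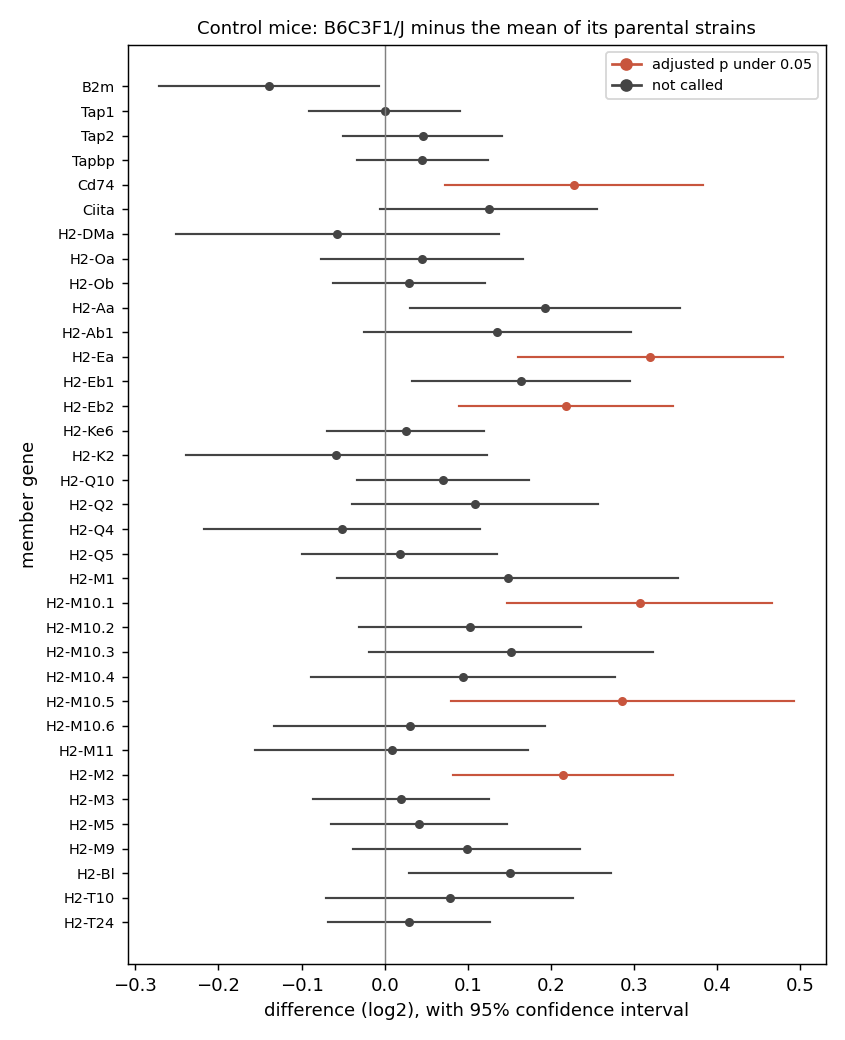
Difference of B6C3F1/J from the mean of C57BL6/J and C3H/HeJ in control mice for the 35 members (points, log2 RMA signal) with 95% confidence intervals. The 6 called members, in red, are all above 0, with H2-Ea at 0.32, and B2m lies at -0.14.

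CR changed none of the members detectably. Across the 7 strains 0 of 35 members were called by limma, beside 2.34% of all genes, and 0 had an unadjusted p under 0.05. The differences ranged from -0.05 to 0.05 log2 units, and the widest ends of the 95% intervals were -0.13 for H2-M10.3 and 0.13 for H2-DMa, changes of -8.46% and 9.71%. Larger changes than these in the mean over strains were thus outside every member's interval. The smallest limma p belonged to H2-Ob, at 0.04 ± 0.02 (adjusted p = 0.358), followed by H2-T24 at -0.04 ± 0.02 (adjusted p = 0.371). The values of B2m, H2-M10.2, H2-M10.3 and H2-Q4 were 0.05, 0.05, -0.05 and -0.05, with adjusted p of 0.444 or more. By value 22 members were higher and 13 lower, with a median of 0.01 beside 0.00 over all genes.

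**Figure D5:**
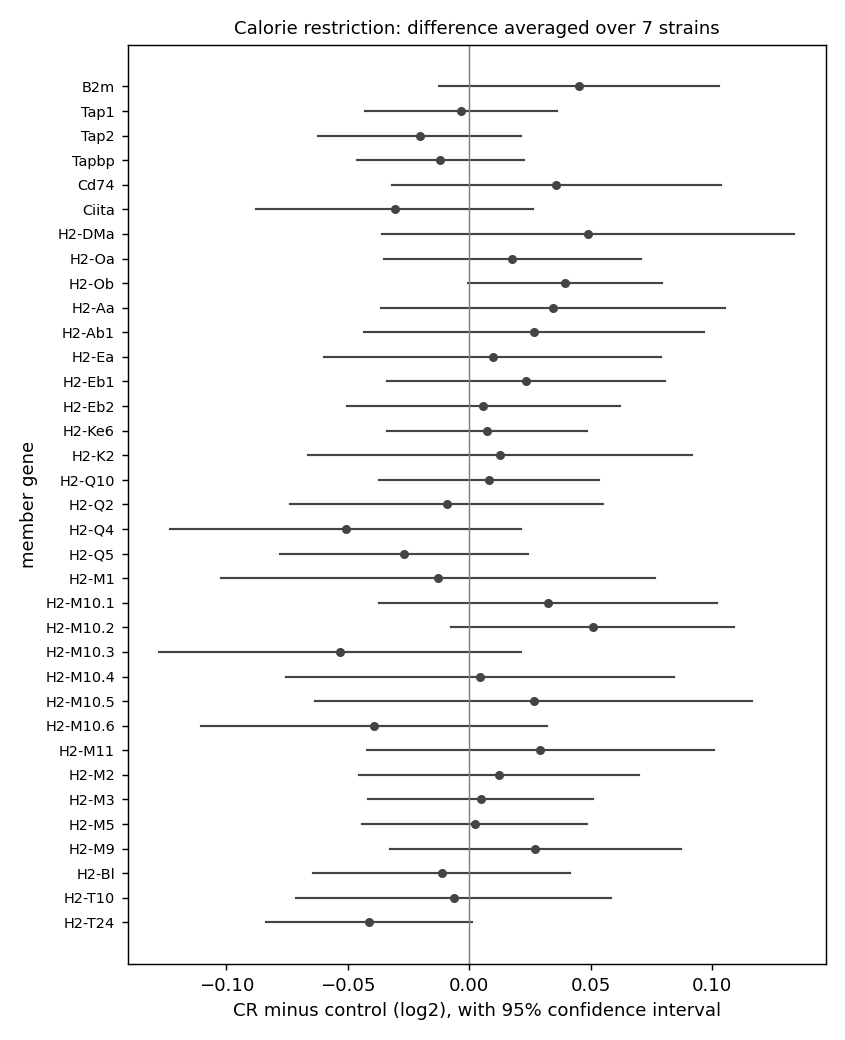
Difference of CR minus control averaged over 7 strains for the 35 members (points, log2 RMA signal) with 95% confidence intervals. All points lie between -0.05 and 0.05 and every interval includes 0.

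Within single strains 0 members were called in any of the 7. The background was 0.00502% of all genes in 129S1/SvImJ, 0.0853% in C57BL6/J, 0.1% in CBA/J and 0% in Balbc/J, DBA/2J, C3H/HeJ and B6C3F1/J. At an unadjusted p under 0.01, 3 values stood out in limma. H2-Q4 was at 6.41 in C57BL6/J control mice and at 6.10 under CR, a difference of -0.31 ± 0.10 (limma adjusted p = 0.186). The CR difference of H2-Ea in C3H/HeJ was 0.30 ± 0.09 (limma adjusted p = 1) and that of B2m in CBA/J 0.24 ± 0.08 (adjusted p = 0.247). The methods' t-test had H2-Q4 and H2-Ea below this threshold and left 0 members after Benjamini-Hochberg adjustment in each strain.

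No difference in diet effect between strains or haplotypes was called. By the strain by diet interaction 0 members were called, beside 0.0401% of all genes, with 2 at an unadjusted p under 0.05, H2-Q4 and H2-Ea. By the haplotype by diet interaction 0 were called, beside 0.015%, with 4 at an unadjusted p under 0.05, H2-Q4, B2m, H2-M2 and H2-Ea.

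Mice of the same strain and diet also differed from each other in class II level. Deviations from the group mean were compared over the 112 mice in 17 relations, with p from 100000 permutations within groups and Benjamini-Hochberg adjustment over the 17. Cd74 and H2-Aa deviated together, with Pearson's r of 0.55 and Spearman's rho of 0.53 (permutation adjusted p = 5.7e-05 and 0.00017), and r was 0.58 without the 2 mice farthest in Cd74. Cd74 and B2m had an r of 0.47 and a rho of 0.34 (permutation adjusted p = 5.7e-05 and 0.00096), and H2-Ab1 and H2-Eb1 an r of 0.42 and a rho of 0.45 (permutation adjusted p = 8.5e-05 and 0.00017). For Cd74 and B2m r was 0.40 without the 2 mice farthest in Cd74, and for H2-Ab1 and H2-Eb1 0.36 without the 2 farthest in H2-Ab1. H2-Aa and H2-Ab1 had an r of 0.44 and a rho of 0.40 (permutation adjusted p = 5.7e-05 and 0.00051), and r was 0.39 without the 2 mice farthest in H2-Aa. Of the 10 pairs among Cd74, H2-Aa, H2-Ab1, H2-Eb1 and H2-Ea, 9 had an adjusted p under 0.05 by Pearson's r and 7 by Spearman's rho. Cd74 did not deviate with the mean of the M region members (r = 0.05, permutation adjusted p = 0.65; rho = 0.02, adjusted p = 0.84). For Cd74 and the microglial list r was 0.05 and rho 0.21 (permutation adjusted p = 0.65 and 0.057). Without the pair of arrays high in cerebellar genes that r was 0.20. For Cd74 and the border cell list r was 0.20 and rho 0.16 (permutation adjusted p = 0.062 and 0.14). B2m had an r of -0.05 with Tap1 and of 0.003 with Tapbp (permutation adjusted p = 0.65 and 0.97). All genes compared here share arrays, so each relation holds what an array's quality gives to all of them.

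B2m and H2-Q4 had an r of 0.40 (permutation adjusted p = 0.0058) and a rho of 0.19 (adjusted p = 0.11). That relation was chosen after values had been seen and rests on few mice, since r was 0.18 without the 2 mice farthest in B2m. C3H/HeJ CR replicate 4 was the highest of its group in B2m at 11.52, H2-Q4 at 6.96 and Cd74 at 7.24, beside group medians of 10.74, 5.94 and 6.603.

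Other genes of the pathway were compared by lists. The background for these is 29.7% of all genes called between haplotypes and 2.34% for CR. Of 16 measured regulators and processing enzymes of class II 5 were called between haplotypes, 31.2%, and 0 for CR across strains. Ifi30, a lysosomal thiol reductase, was lower in b than in d by 0.33 on the log2 scale (b minus d -0.33, adjusted p = 9.67e-12), and Ctss, the protease that trims the invariant chain, by 0.30 (-0.30, adjusted p = 2.21e-05). Of 13 measured genes of class I processing 5 were called between haplotypes, 38.5%, and 3 for CR. The immunoproteasome subunit Psmb10 was lower in b than in d and in k (-0.42 for both, adjusted p = 6.69e-09 and 1.25e-08). The chaperones Canx, Calr and Pdia3 were higher under CR by 0.05, 0.06 and 0.10 (adjusted p = 0.0134, 0.0255 and 0.0301).

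Genes of the H2 region without an H2 name also differed. Of 87 measured neighbours without an H2 name 36 were called between haplotypes, 41.4% beside the 48.6% of the members and the 29.7% of all genes. Strains of the same haplotype differed in 63 of the 87, 72.4% beside 59.9% of all genes. Under CR 4 of them were lower, Prrt1, Vars, Brd2 and Zbtb22. Vps52, a trafficking gene, was lower in b than in d by 0.35 on the log2 scale (-0.35, adjusted p = 9.98e-17). The list of microglial genes had 10 of 16 called between haplotypes, among them C1qc, higher in b than in k by 0.83 (adjusted p = 1.27e-18), and Olfml3, higher in d than in k by 0.67 (adjusted p = 1.69e-20). Strains of the same haplotype differed in 14 of the 16, 87.5% beside 59.9% of all genes. Of the list 2 genes were called higher and 7 lower in b than in d. In b against k 4 were higher and 2 lower, and in d against k 5 were higher and 1 lower. Aif1, a microglial gene that lies within the H2 complex, was lower in b than in k by 0.67 (-0.67, adjusted p = 5.88e-24).

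Of the markers of lymphocytes 0 of 7 B cell and 0 of 9 T and NK cell genes were called between haplotypes, beside 29.7% of all genes. Their mean levels lay between 5.92 and 6.16 and between 5.84 and 6.07 over the 14 groups. Between the b strains 5 of the 7 B cell and 3 of the 9 T and NK cell genes were higher in 129S1/SvImJ. Of the other lists, border macrophages and dendritic cells had 2 of 14 called, endothelium 3 of 9, cortical excitatory neurons 1 of 9, blood 1 of 2, choroid plexus 0 of 8, cerebellum 0 of 10, class I-like genes outside the complex 1 of 6 and interferon-induced genes 6 of 18. For CR, 2 interferon-induced genes were higher, Ifit3 by 0.24 (adjusted p = 5.41e-05) and Ifit3b by 0.23 (adjusted p = 0.00301), while 0 of the 16 microglial genes were called.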

How the data were processed

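Cortex RNA was hybridised to Affymetrix Gene 1.0 ST arrays. The authors deposited log2 signal per probe set, made in Expression Console with RMA-Sketch (background correction, quantile normalization, summary of probes), and no software version was found in the sources. Of 35556 probe sets 21789 had 1 symbol. Where a gene had several, the one with the highest average signal in the 112 arrays was used, which gave 19938 genes, with no filter on low signal. A linear model with 14 strain and diet means was fitted in limma 3.58.1 (R 4.3.3), with 98 residual degrees of freedom. Contrasts and moderated F tests were called below 0.05 after Benjamini-Hochberg adjustment across the 19938 genes. Values after ± are standard errors unless SD is stated.

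Members and lists were chosen with earlier results of these data known. Described with values were the core presentation genes, the 12 members with the widest strain range among those called between haplotypes, the 6 with the largest called difference within a haplotype, up to 6 for CR and up to 4 for the hybrid by smallest p, and up to 4 genes of a list. H2-Oa, H2-Q2, H2-Q5, H2-Q10, H2-T10, H2-M9 and H2-M10.5 fall outside this rule and were added after their values were seen. Tests were checked on simulated data. For the haplotype test both b strains were given the same shift there, and strains did not differ otherwise. The check therefore cannot show how spread between strains of a haplotype affects that test. Alternatives covered scaling, low signal, variance settings, array weights, arrays or strains left out, a replicate block, every probe set and the methods' t-test. Promoters were read with Python 3.11.15, and figures drawn with matplotlib 3.10.9.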

Additional observations from a re-analysis of the deposited data

Results flagged for a closer look

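The gap of the most extreme mouse to its nearest neighbour, as a share of its group's range, was checked for the 23 members described, in 322 groups of 8 mice. It passed Dixon's 95% limit in 21 groups, 6.52%, where chance gives about 1 in 20 groups. Of these, 8 were on the pair of control arrays high in cerebellar genes.

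On those arrays the values were Tap1 in C57BL6/J control replicate 6 (7.33, nearest mouse 7.15, share 0.542), H2-Bl in B6C3F1/J control replicate 8 (6.52, nearest mouse 6.11, share 0.609), H2-DMa in C57BL6/J control replicate 6 (6.58, nearest mouse 7.56, share 0.819) and H2-DMa in B6C3F1/J control replicate 8 (6.39, nearest mouse 7.57, share 0.765). They were also H2-K2 in C57BL6/J control replicate 6 (6.98, nearest mouse 5.89, share 0.766), H2-K2 in B6C3F1/J control replicate 8 (6.23, nearest mouse 5.75, share 0.532), H2-M10.2 in C57BL6/J control replicate 6 (6.49, nearest mouse 6.19, share 0.729) and H2-Eb2 in C57BL6/J control replicate 6 (6.25, nearest mouse 5.86, share 0.678).

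Elsewhere single mice stood high for H2-Aa in DBA/2J CR replicate 6 (6.00, nearest mouse 5.71, share 0.573), H2-Eb1 in 129S1/SvImJ CR replicate 5 (7.85, nearest mouse 7.61, share 0.603), H2-Ea in C3H/HeJ CR replicate 8 (6.48, nearest mouse 6.27, share 0.59), Cd74 in C3H/HeJ CR replicate 4 (7.24, nearest mouse 6.75, share 0.727), H2-Q4 in B6C3F1/J control replicate 2 (6.34, nearest mouse 6.20, share 0.59) and H2-Q4 in CBA/J CR replicate 7 (6.83, nearest mouse 6.35, share 0.633). Single mice stood low for Cd74 in C57BL6/J CR replicate 2 (6.24, nearest mouse 6.38, share 0.577), Ciita in B6C3F1/J CR replicate 3 (6.30, nearest mouse 6.53, share 0.619), H2-DMa in CBA/J CR replicate 8 (7.24, nearest mouse 7.67, share 0.646), H2-Ke6 in CBA/J CR replicate 5 (8.03, nearest mouse 8.21, share 0.602), H2-M2 in 129S1/SvImJ CR replicate 2 (5.36, nearest mouse 5.56, share 0.612), H2-M10.3 in Balbc/J control replicate 8 (5.32, nearest mouse 5.80, share 0.614) and H2-M10.3 in DBA/2J control replicate 5 (5.39, nearest mouse 5.78, share 0.576).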

How the results depend on the processing

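The counts of members called were within 1.5 times of those reported under the alternatives run, apart from 2 settings. When only genes above the median level were tested, 5 members remained testable, and 5 were called for strain differences, 5 between haplotypes, 3 within haplotypes and 0 for the hybrid. With CR mice in place of control mice 2 members were called for the hybrid. Over the other settings the count between haplotypes was 15 to 19 and that within haplotypes 14 to 21. With the replicate block the counts were 25 for strains, 17 between and 17 within haplotypes and 0 for CR. The block only marks a shared number: 31 of 56 pairs of same-numbered control and CR mice of a strain had a correlation of deviations over 0.1, and 12 of 56 control mice correlated best with their own number. Under the block Tapbp and H2-M9 lost and H2-M1 gained a call within haplotypes. Tapbp also lost it in 4 other settings. Values that changed sign were H2-Q4 b minus k in the mean of both diets (-0.00891), Tap2 within b with array medians set to 0 (-0.00947), H2-Ea under CR without strain C3H/HeJ (-0.0393), and Tap1 and Tap2 for the hybrid in CR mice (0.0543 and -0.0162). Tap1 under CR also changed sign without 2 or 4 arrays high in cerebellar genes (0.00612 and 0.00977) and without strain 129S1/SvImJ, C57BL6/J or DBA/2J (0.0107, 0.00324 and 0.00209). Of these H2-Q4 was called between haplotypes under that setting, and the others were not called. H2-Aa within b lost its call under both other scalings, and H2-Ea within k in the fit on the 48 control arrays and in the mean of both diets. The causes were not tested.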
